A study of Mus musculus with 6 samples.

Results

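The autophagy machinery was examined here as 37 mouse genes, picked by symbol for their known role, of 23282 genes listed for each library. They were grouped by role into the ULK complex (5 genes), the class III PI3K complex (6 genes), lipid transfer and WIPI proteins (5 genes), the ATG conjugation system (10 genes), the ATG8 family (5 genes) and cargo receptors (6 genes). All 37 were found in the files, and all 37 passed the filter on low values, a mean of at least 1 over the 6 libraries on the deposited log2 scale.

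Bulk RNA-seq had been done on activated mouse CD4 T cells, in 3 samples of each genotype (WT and AMPK KO). Both groups were of the C57BL/6 strain and carried the floxed Prkaa1 gene, which encodes a catalytic subunit of AMPK. WT cells were Prkaa1 fl/fl without Cre. In AMPK KO cells Cre, driven by CD4 regulatory sequence, deleted the floxed part, so the loss is not limited to CD4 T cells but covers other T cells that passed through the CD4-expressing stage, and cells without Cre keep the gene. Methods of the study describe female mice of 6 to 8 weeks unless stated otherwise, and CD4 T cells of spleen and lymph nodes purified with microbeads or a cell sorter. The cells were rested for 1 h and then activated through CD3 and CD28, with antibodies at 2 µg/mL. The labels give 24 h of activation, whereas the methods give 6 h. In bulk samples, fewer cells of a type and less RNA per cell cannot be told apart. The study describes the samples of each group as biologically independent, and the labels do not name the animals.

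Autophagy encloses cytoplasm in a double membrane that fuses with the lysosome. The ULK kinase complex, which AMPK is known to phosphorylate, starts the process, the class III PI3K complex makes the lipid that WIPI proteins bind, ATG9A and ATG2 proteins supply lipid, and a ubiquitin-like conjugation system attaches ATG8 proteins to the membrane, where cargo receptors dock. In T cells autophagy is known for its part in survival and in the metabolism of activated and memory cells.

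The WT libraries held 9575084 to 10167971 reads on genes, those of AMPK KO 10515643 to 11185374. The ribosomal repeat transcript Rn45s took 20.7 to 24.9% of the WT reads, against 8.48 to 10.8% in AMPK KO. The squared difference between AMPK KO samples 1 and 3 was 9.72 times that of counting noise (median over genes), and that of sample 2 against them was 17.8 and 24.3 times. In WT it was 9.69 times between samples 1 and 3, and 13.9 and 13.5 times for sample 2 against them. Prkaa1 itself was at 4.64, 5.24 and 4.86 in WT and 4.08, 4.72 and 4.67 in AMPK KO, and the log2 fold change was −0.43 (SE 0.25, limma adjusted p = 0.357). The library reads the 3′ end of transcripts, the deleted part of Prkaa1 is not given in the sources used here, and this level therefore does not check the labels. Xist, expressed from the inactive X, was read 8 to 32 times per WT library and 1998 to 2876 times per AMPK KO library, and the Y-linked Ddx3y was read 3158 to 3462 times in WT libraries but 1296 to 1840 times in those of AMPK KO, so sex-linked transcripts differed with genotype. Y-linked reads in all 6 libraries, with little Xist in WT, go against female mice alone, and the effects of sex and of genotype cannot be told apart. The T cell genes Cd3e and Cd4 were present in every library. Of 12 tested T cell markers, 3 were called lower in AMPK KO, with a summed linear level of 3247 to 3465 in WT and 2521 to 2974 in AMPK KO. Of 18 tested macrophage and monocyte markers, 8 were called higher, with a summed level of 550.0 to 606.6 in WT and 1227, 1821 and 1033 in AMPK KO samples 1, 2 and 3. Of 12 tested neutrophil markers, 2 were called lower, with a summed level of 804.6 to 919.8 in WT and 530.5 to 770.3 in AMPK KO, and of 5 platelet markers 1 was called in each direction. The part of these cell types in the values below was not tested.

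Across the 6 libraries, no transcript of the autophagy machinery was called as different between WT and AMPK KO. All values below are deposited log2 levels, and each fold change is AMPK KO minus WT. In limma 0 of 37 members reached an adjusted p under 0.05, against 637 of 11279 tested genes, a background of 5.65%. At an unadjusted p under 0.05, 4 members passed, against a background of 21.3% of genes, and these were Rb1cc1, Atg101, Atg2a and Wipi2, all lower in AMPK KO. This unadjusted count moved with single libraries. Leaving out WT sample 1 gave 0 (15.2% of all genes tested), as did AMPK KO sample 1 (15.3%), while leaving out WT sample 2 gave 7 (23.2%) and AMPK KO sample 2 gave 12 (25.9%). With limma voom on recovered reads 0 members were called and 6 passed unadjusted, against 20.4% of all genes. The groups did not overlap in 4 members, Rb1cc1, Wipi2, Map1lc3b and Gabarapl2, against a background of 25.6%. The mean was higher in AMPK KO for 22 members and lower for 15, with a median fold change of 0.09 (0.02 over all genes tested) and a median absolute change of 0.24 (0.31 over all genes tested). The median fold change of the members was −0.03 without AMPK KO sample 3 (0.02 over all genes). It was 0.02 when scaled to reads outside Rn45s (−0.05 over all genes). The 95% interval of the change lay within 2-fold in both directions for 26 of the 37 genes and within 1.5-fold for 5.

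**Figure D1:**
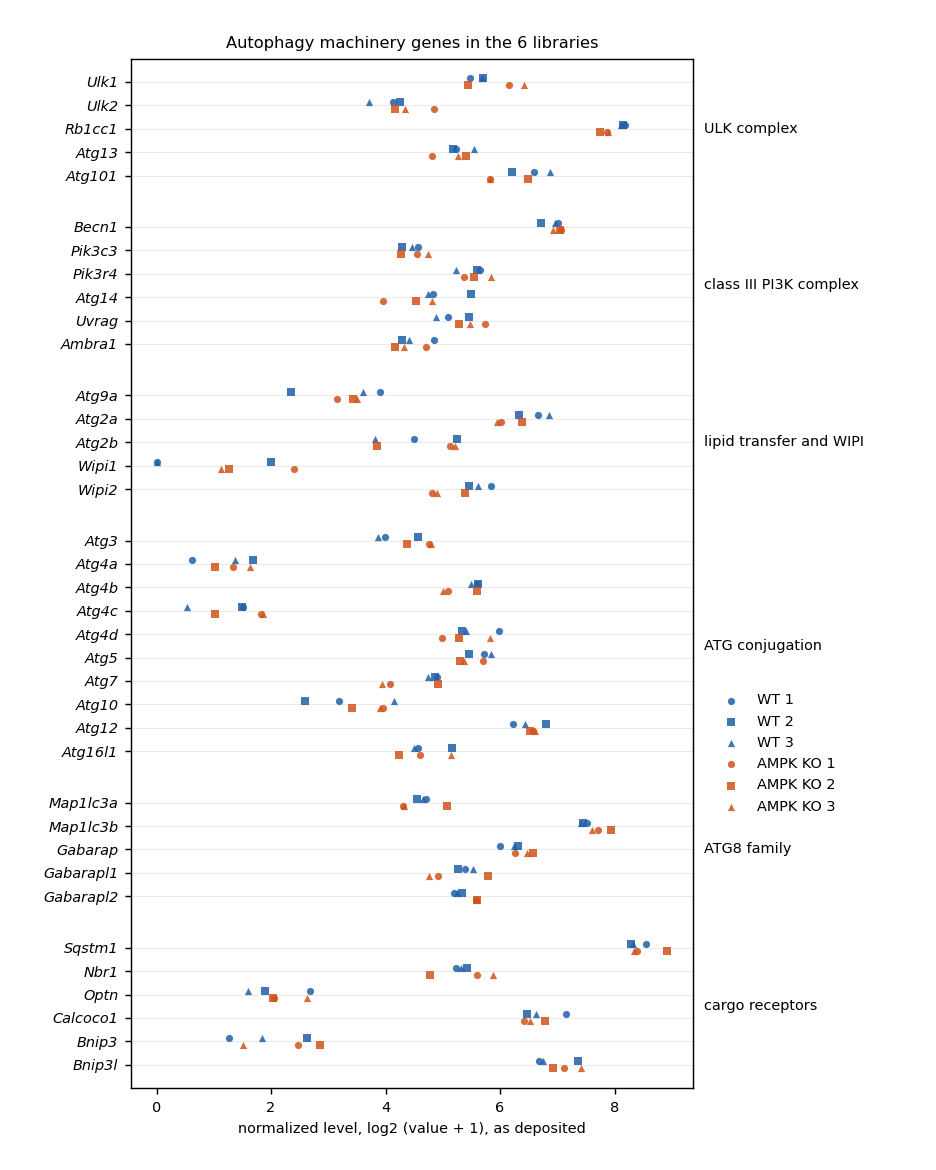
Levels of the 37 autophagy machinery genes by role in each of the 3 WT and 3 AMPK KO libraries, on the horizontal axis as the deposited log2(value + 1). The groups do not overlap only for Rb1cc1, Wipi2, Map1lc3b and Gabarapl2.

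**Figure D2:**
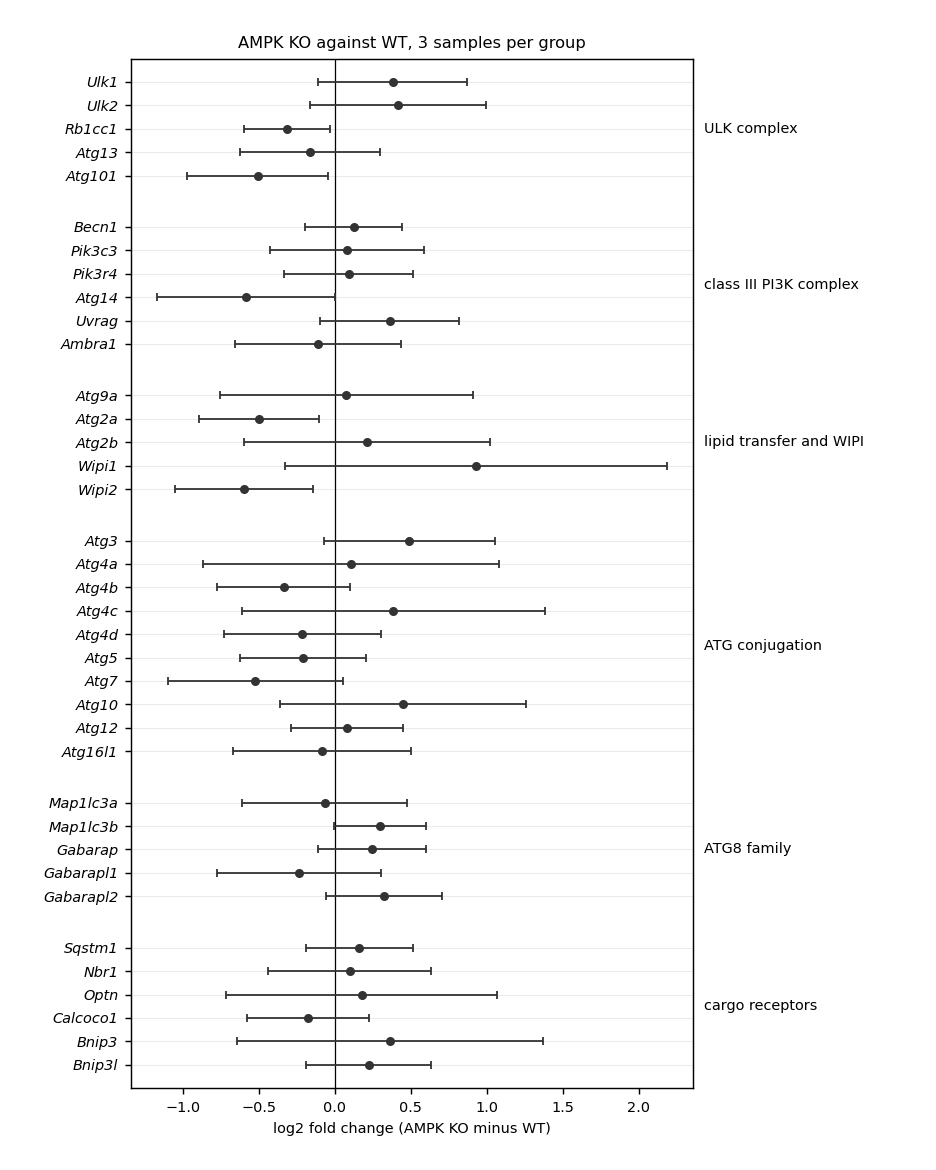
Log2 fold change of AMPK KO minus WT for each of the 37 genes, with the limma 95% interval as bars. The points run from −0.60 for Wipi2 to 0.93 for Wipi1, whose interval is the widest.

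TFEB and its relatives bind E-box sequences in autophagy genes, and forkhead factors bind GTAAACA. The promoter windows of 250 bases before to 50 after a RefSeq start (GRCm38.p6) were searched on both strands for CACGTG, for TCACGTGA, which contains it, and for GTAAACA. Windows were available for 30 of the 37 members (33 windows). CACGTG was found in 5 of the 33 windows (Atg14, Atg3, Atg5, Atg7 and Bnip3), or 15.2%, and in 7.15% of all 32851 windows. The windows of Atg7 and Atg14 lie inside the gene as GENCODE draws it, downstream of its outer start. TCACGTGA was in the window of Atg3 (0.974% of all windows), and GTAAACA in none (3.65% of all windows). The windows of Atg3 (chr16:45158579-45158878, plus strand) and Atg14 (chr14:47568385-47568684, minus strand) are shown as examples of windows that hold CACGTG, in the conjugating enzyme for ATG8 proteins and in the subunit that directs the PI3K complex to autophagy. Neither gene passed the test. Capitals mark CACGTG, and a match is a description of the letters only.
Atg3: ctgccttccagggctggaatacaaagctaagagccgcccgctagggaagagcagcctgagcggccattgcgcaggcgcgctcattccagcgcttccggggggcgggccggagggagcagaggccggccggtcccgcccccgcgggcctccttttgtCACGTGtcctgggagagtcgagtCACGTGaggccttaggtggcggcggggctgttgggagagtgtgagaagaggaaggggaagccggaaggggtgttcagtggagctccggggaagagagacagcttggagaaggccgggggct
Atg14: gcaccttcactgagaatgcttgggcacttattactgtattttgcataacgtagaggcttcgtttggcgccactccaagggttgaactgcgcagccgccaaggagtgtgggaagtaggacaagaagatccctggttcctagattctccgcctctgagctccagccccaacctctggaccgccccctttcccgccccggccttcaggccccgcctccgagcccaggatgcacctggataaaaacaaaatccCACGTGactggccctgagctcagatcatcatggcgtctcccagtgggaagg

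The ULK complex starts autophagy. Rb1cc1, the scaffold FIP200 of the complex and the member with the second highest level (reads at the 3′ end, not divided by length), was at 8.18, 8.15 and 8.11 in WT and 7.88, 7.74 and 7.88 in AMPK KO. Rb1cc1 spans 6206197 to 6276648 of chromosome 1 (mm10). All 3 AMPK KO samples lay below all 3 WT samples, by a fold change of −0.32 (SE 0.13, 95% interval −0.60 to −0.04, limma adjusted p = 0.181). Atg101, an ATG13-binding subunit, was at 6.60, 6.20 and 6.87 in WT and 5.82, 6.50 and 5.83 in AMPK KO. AMPK KO samples 1 and 3 were lower than every WT sample while sample 2 lay among them, and the change of −0.51 (SE 0.22) had a limma adjusted p of 0.191.

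Ulk1, the kinase, was at 5.47, 5.71 and 5.69 in WT and 6.16, 5.43 and 6.42 in AMPK KO. Samples 1 and 3 of AMPK KO were above all WT samples and sample 2 was the lowest of the 6, a change of 0.38 (SE 0.23, limma adjusted p = 0.362). The related kinase Ulk2 had a change of 0.42 with overlapping groups (adjusted p = 0.405), and the difference Ulk1 minus Ulk2 was 1.59 ± 0.34 in WT and 1.55 ± 0.45 in AMPK KO (SD, n = 3, exact permutation test, p = 0.80). Atg13, which bridges the subunits, was at −0.17 and its interval spanned zero. The mean level of the 5 genes differed by −0.04 between groups.

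In the class III PI3K complex, Becn1, the core subunit, was at 7.01, 6.72 and 6.96 in WT and 7.07, 7.05 and 6.93 in AMPK KO. The groups overlapped, and the change of 0.12 had a 95% interval from −0.19 to 0.44 (adjusted p = 0.681). Becn1 lies on chromosome 11 from 101285952 to 101302286 (mm10, minus strand), and its 3′ end overlaps Cntd1 on the other strand, which carried 83.3 to 86.9% as many reads with the same change of 0.12. The strand used in the authors' counting is not given in the sources used here, so reads of the 2 genes may be shared.

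Pik3c3, the lipid kinase, and Pik3r4, its regulatory subunit, had fold changes of 0.08 and 0.09, with overlapping groups, and each turned negative when a sample was left out. Atg14, whose window is shown above and which directs the complex to autophagy, was at 4.83, 5.50 and 4.75 in WT and 3.96, 4.54 and 4.82 in AMPK KO. AMPK KO samples 1 and 2 lay below all WT samples and sample 3 overlapped them, a change of −0.59 (SE 0.28, limma adjusted p = 0.236) that ranged from −0.77 to −0.35 with 1 sample left out. Uvrag, which joins the alternative endosomal complex, was at 0.36 and Ambra1, a regulator of BECN1, at −0.11, with overlapping groups for both. Of the 6 genes, 4 had a higher mean in AMPK KO.

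Among the lipid transfer and WIPI genes, Wipi2, which binds the lipid made by the complex and recruits ATG16L1, was at 5.83, 5.45 and 5.61 in WT and 4.80, 5.40 and 4.90 in AMPK KO. Wipi2 spans 142627698 to 142670588 of chromosome 5, and Atg2a 6241668 to 6262335 of chromosome 19. The AMPK KO samples were below the WT samples, sample 2 by the smallest margin, with a change of −0.60 (SE 0.21, limma adjusted p = 0.116). Atg2a, a lipid transfer protein, was at 6.67, 6.32 and 6.86 in WT and 6.01, 6.38 and 5.95 in AMPK KO. Only sample 2 of AMPK KO reached the range of WT, and the change was −0.50 (SE 0.18, limma adjusted p = 0.130).

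Its paralogue Atg2b had a change of 0.21 (SE 0.38) and Atg9a, the lipid scramblase of the membrane seeds, one of 0.08. Wipi1 had few reads, 0, 30 and 0 reads in WT and 51, 15 and 14 in AMPK KO, and its change of 0.93 (limma adjusted p = 0.390) rests on those few reads. It ranged from 0.52 to 1.60 with 1 sample left out and was 3.24 with limma voom on recovered reads (adjusted p = 0.196). The level difference of Wipi1 minus Wipi2 was −4.97 ± 1.32 in WT and −3.44 ± 0.92 in AMPK KO (SD, n = 3, exact permutation test, p = 0.30).

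The conjugation system had no member whose groups were separate. Atg7, its activating enzyme, was at 4.91, 4.86 and 4.74 in WT and 4.08, 4.91 and 3.94 in AMPK KO. AMPK KO samples 1 and 3 were below all WT samples, and sample 2 was the highest of the 6, a change of −0.52 (SE 0.27, limma adjusted p = 0.282). Atg5, which joins ATG12 to ATG16L1, was at 5.72, 5.45 and 5.85 in WT and 5.71, 5.30 and 5.37 in AMPK KO, a change of −0.21 (limma adjusted p = 0.571).

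Atg16l1, which places the conjugate on the membrane, was at 4.57, 5.17 and 4.49 in WT and 4.60, 4.23 and 5.14 in AMPK KO, with a change of −0.08. The fold change was 0.08 for Atg12, 0.49 for Atg3, the conjugating enzyme for ATG8 proteins (adjusted p = 0.302), and 0.45 for Atg10, that for ATG12 (adjusted p = 0.533), all with overlapping groups. Atg12 was at −0.050 without WT sample 1, and Atg10 at 0.089 without WT sample 2. Among the ATG8-processing proteases, Atg4b was at −0.34 and Atg4d at −0.21. The 3′ end of Atg4d overlaps Kri1, which had 93.5 to 113% as many reads and a change of −0.24. Atg4a and Atg4c were measured with few reads, 5 to 25 and 4 to 31.

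ATG8 proteins mark the autophagosome membrane and bind receptors. Map1lc3b, the LC3 gene with the highest level here, was at 7.52, 7.45 and 7.41 in WT and 7.71, 7.94 and 7.61 in AMPK KO. Map1lc3b spans 121590361 to 121598760 of chromosome 8, where its 3′ end overlaps Gm20388 on the same strand, which was not used here, so its reads may be shared. The AMPK KO samples all lay above the WT samples, by 0.30 (SE 0.14, limma adjusted p = 0.246). Gabarapl2 was at 5.20, 5.34 and 5.26 in WT and 5.58, 5.59 and 5.60 in AMPK KO, again with AMPK KO above WT in every sample, by 0.33 (SE 0.18, limma adjusted p = 0.317).

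Gabarap was at 0.24 with overlapping groups. Gabarapl1 was at 5.39, 5.26 and 5.53 in WT and 4.92, 5.79 and 4.75 in AMPK KO, with samples 1 and 3 below WT and sample 2 above (limma adjusted p = 0.634). Map1lc3a had the same order, at 4.70, 4.54 and 4.65 in WT and 4.30, 5.07 and 4.32 in AMPK KO. AMPK KO sample 2 was the highest of the 6 libraries in Map1lc3a, Map1lc3b, Gabarap, Gabarapl1 and also Sqstm1 and Bnip3, and of the 3 AMPK KO samples it had the largest sum in each of the 6 marker lists (T cell, B cell, macrophage and monocyte, neutrophil, erythroid and platelet). Over all 37 members it was highest or lowest in 14 (37.8%), against 41.3% of all genes tested.

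The share of each ATG8 gene in the reads of the 5 genes overlapped between the groups. Map1lc3b held 52.5, 49.4 and 48.2% in WT and 55.1, 51.7 and 51.9% in AMPK KO (exact permutation test, p = 0.30). Gabarapl1 held 11.8 ± 1.17% in WT and 8.73 ± 2.46% in AMPK KO (7.72, 11.5 and 6.94% in samples 1 to 3, exact permutation test, p = 0.20). With 3 against 3 samples the smallest p this test can give is 0.10. The mean normalized log2 level of the 5 genes was 5.76, 5.78 and 5.82 in WT and 5.75, 6.19 and 5.75 in AMPK KO, with sample 2 above and the other two just below all WT samples. The summed linear level, of which Map1lc3b makes up the largest share, was 347.1, 351.4 and 349.7 in WT and 379.1, 471.9 and 374.6 in AMPK KO, so that here every AMPK KO sample lay above every WT sample. This sum was not tested, and 25.6% of all genes tested had separate groups. As a share of reads outside Rn45s the 5 genes held 0.0420, 0.0436 and 0.0430% in WT and 0.0458, 0.0527 and 0.0444% in AMPK KO, in the same order of groups.

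**Figure D3:**
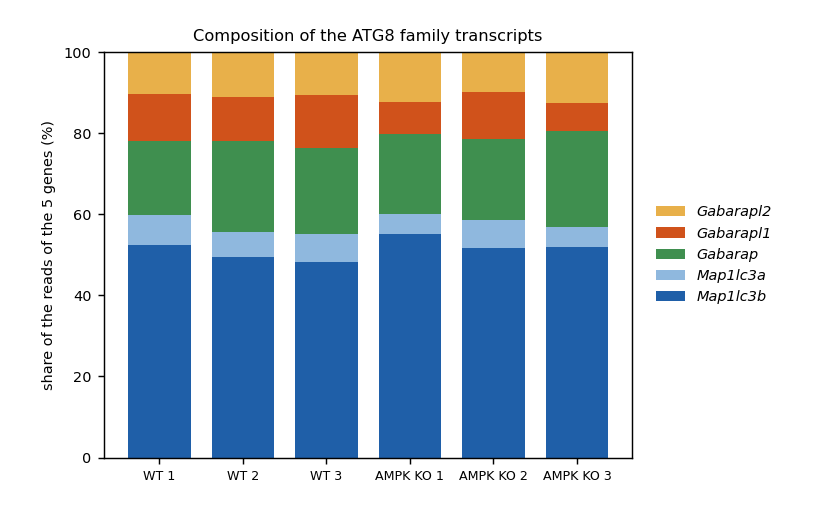
Share of each ATG8 family gene, in percent, in the reads of the 5 genes for each library, as stacked bars of 100%. Gabarapl1 is at 7.72 and 6.94% in AMPK KO samples 1 and 3 and at 11.5% in sample 2.

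Among the cargo receptors, Sqstm1 (p62), the member with the highest level, was at 8.56, 8.29 and 8.33 in WT and 8.40, 8.92 and 8.34 in AMPK KO. Sample 2 of AMPK KO was the only one above the WT range, and the change was 0.16 (SE 0.17, limma adjusted p = 0.622). Nbr1, a related receptor, was at 5.24, 5.42 and 5.32 in WT and 5.61, 4.77 and 5.88 in AMPK KO, with sample 2 now the lowest. Sqstm1 minus Nbr1 was therefore 2.79, 4.14 and 2.46 in the AMPK KO samples, against 3.32, 2.87 and 3.01 in WT. The group means were 3.13 in AMPK KO and 3.07 in WT.

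The mitophagy receptor Bnip3l was at 6.68, 7.36 and 6.76 in WT and 7.12, 6.92 and 7.42 in AMPK KO, a change of 0.22 (limma adjusted p = 0.549). Its paralogue Bnip3 had 13 to 67 reads and near-identical copies of its 3′ end in 4 annotated pseudogenes. Atg4a has such a copy in Atg4a-ps, and the 3′ end of Atg9a is shared with Gm29253, a transcript at the same locus and strand. Reads of these 3 members are therefore uncertain, and the copies were not used here. Optn was at 0.18 and Calcoco1 at −0.18, with overlapping groups. Of the 9 within-pair differences computed over the machinery, none separated the groups, and every adjusted p in the exact permutation tests was at least 0.90. No p under 0.10 is possible with 3 against 3 samples, so no pair could have reached 0.05 in these tests.

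The calls depended on AMPK KO sample 2. Without it, 5 of 37 members were called by limma, against a background of 11.0%. Calls over all genes tested rose as well, from 637 to 1246, so the rise is not particular to the members. Ulk1 rose by 0.67 (adjusted p = 0.0228), whereas Atg101 fell by 0.73 (adjusted p = 0.0177), Atg2a by 0.64 (adjusted p = 0.0263), Wipi2 by 0.78 (adjusted p = 0.0198) and Atg7 by 0.83 (adjusted p = 0.0372). No reason to leave that sample out is given in the sources used here.

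**Figure D4:**
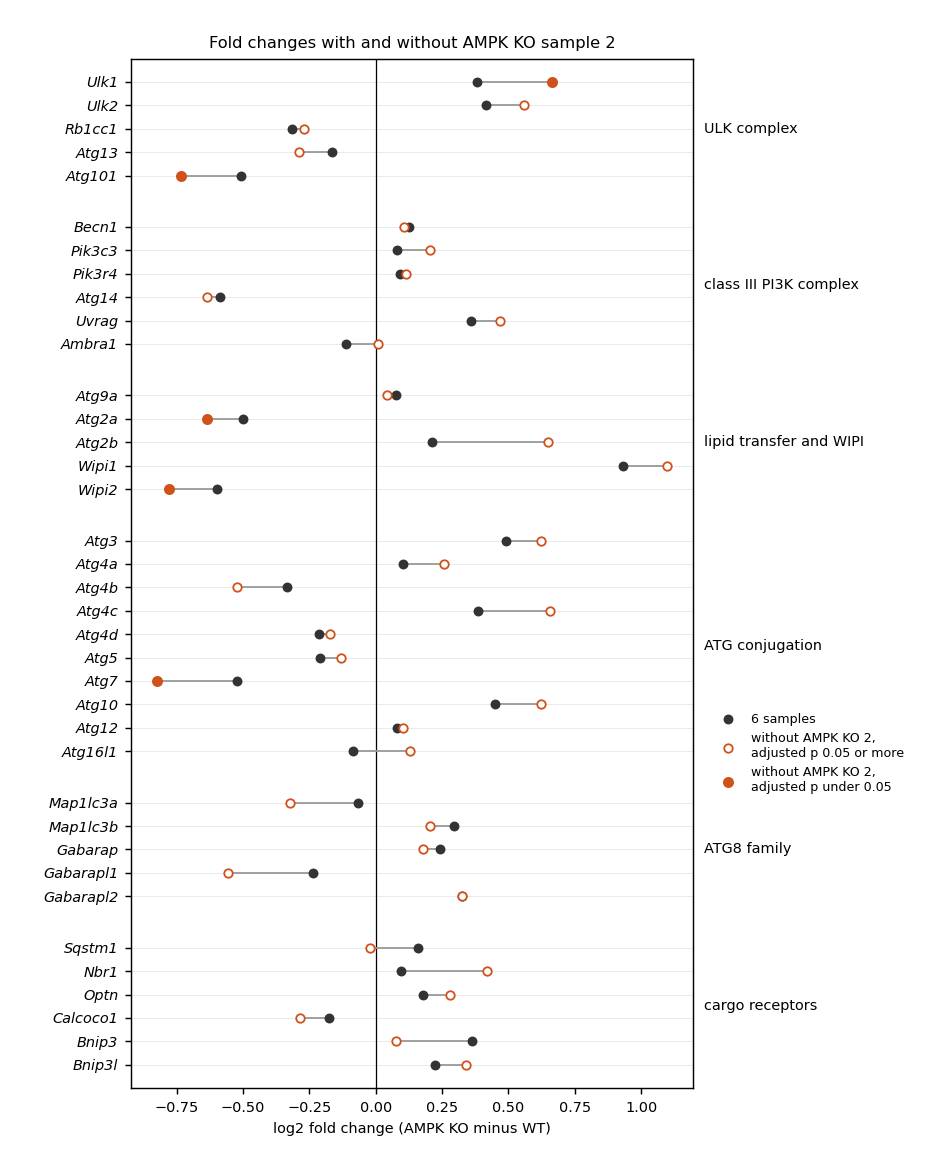
Log2 fold change of AMPK KO minus WT with all 6 samples (dark points) and without AMPK KO sample 2 (orange points, filled where the adjusted p is under 0.05). The filled points are Ulk1 at 0.67, Atg101 at −0.73, Atg2a at −0.64, Wipi2 at −0.78 and Atg7 at −0.83.

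Other autophagy genes were set beside the members from a list of 40, of which 37 were tested. Snx18, a membrane remodelling sorting nexin, was the only one called, at 6.96, 6.79 and 6.77 in WT and 6.03, 6.05 and 5.79 in AMPK KO. The groups were separate and the change was −0.88 (SE 0.16, limma adjusted p = 0.00585). The change was −0.82 without WT sample 1 (adjusted p = 0.0649) and −0.88 with a replicate block (adjusted p = 0.064), neither past the threshold. At an unadjusted p under 0.05, 7 of these 37 genes passed (18.9%, against the background of 21.3%), and the median change of the 37 was −0.01. Vmp1, which acts at the endoplasmic reticulum, was at 0.55 (adjusted p = 0.106) and Tecpr1, a factor of autophagosome-lysosome fusion, at −0.56 (adjusted p = 0.0582). Of the 10 tested transcription factors of autophagy genes 0 were called and 3 passed unadjusted (against the background of 21.3%), which were Nfe2l2 at −0.67 (adjusted p = 0.0521), Atf4 at 0.54 (adjusted p = 0.0574) and Foxo4 at −0.43 (adjusted p = 0.130). Tfeb at −0.20 and Foxo1 at −0.17 did not pass. Of the 8 tested AMPK subunits, LKB1 and its partners, none passed an unadjusted p of 0.05.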

How the data were processed

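RNA-seq of 6 samples (3 WT, 3 AMPK KO, groups from the labels) was analysed. The authors prepared QuantSeq 3′ libraries from 500 ng of RNA, and the deposited values are log2(TMM-normalized CPM + 1). The submitters' processing notes name Bowtie2, bedtools and mm10; versions, annotation and strand are not given in the sources used here. Values up to 100 reads fell within 0.1 of whole reads, so read numbers were recovered from them. Fold changes were tested with limma 3.58.1 (R 4.3.3, trend) on the log2 values of 11279 genes with a mean of at least 1, with Benjamini-Hochberg adjustment over all of them at 0.05. Differences within pairs and shares used two-sided exact permutation tests. Every member was named. Values in every sample were given for members with an unadjusted p under 0.05 and for a selection of others. That selection is not a ranking by level or size of change. The members were defined by role, not by a threshold on these values, but they and the lists were chosen with earlier results of these data known. Alternatives were no filter, a mean of at least 3, quantile normalization, robust limma, a replicate block, scaling to reads outside Rn45s, limma voom on recovered reads and each sample left out. The limma code was tested on simulated data. Python 3.11.15 was used for tables. Gene positions are from GENCODE M21.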

Additional observations from a re-analysis of the deposited data

How the results depend on the processing

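No member was called in the main analysis or in any alternative that kept all 6 samples (8 of these, counting a looser adjusted p of 0.1). Leaving out one sample at a time gave 0 to 1 members called higher and 0 to 4 called lower, and every call came without AMPK KO sample 2. Of other autophagy genes, 0 to 2 were called higher when a sample was left out (1 without WT sample 2, 2 without AMPK KO sample 2). The number called lower, 1, became 0 under the replicate block, 2 when scaled outside Rn45s and 2 at an adjusted p of 0.1, and ranged from 0 (without WT sample 1) to 2 (without AMPK KO sample 2). Snx18 itself had adjusted p = 0.064 with the block and 0.0649 without WT sample 1. The number of separated pair differences, 0, ranged from 0 to 4 over left-out samples (leaving out WT sample 1 gave 1, WT sample 2 gave 3, AMPK KO sample 2 gave 4 and AMPK KO sample 3 gave 2). Groups with a sample left out separate more readily by chance than 3 against 3, so these counts are not like the 0. For the replicate block another count was made, of pairs whose 3 differences between same-numbered samples shared a sign. It was 1, with overlapping groups, and 0.25 is the smallest sign-flip p. The replicate numbers did not pair the samples. Over the genes tested, the deviations of same-numbered samples from their group means correlated at −0.08, −0.32 and −0.16. Those of samples with unlike numbers correlated at −0.11 to 0.24. The block lowered the calls over all genes from 637 to 102. With quantile normalization Atg9a reversed to −0.0023 and Atg4a to −0.068. Leaving out samples in turn moved the change of Atg13 from −0.29 to 0.010, Pik3c3 from −0.029 to 0.21, Pik3r4 from −0.037 to 0.20, Ambra1 from −0.27 to 0.058, Atg9a from −0.39 to 0.38, Atg2b from −0.14 to 0.65, Atg4a from −0.20 to 0.33, Atg12 from −0.050 to 0.24, Atg16l1 from −0.32 to 0.13, Map1lc3a from −0.32 to 0.066, Sqstm1 from −0.023 to 0.27, Nbr1 from −0.13 to 0.42, Optn from −0.051 to 0.49 and Calcoco1 from −0.31 to 0.024. The other 23 members kept their direction, but for 16 of them the change moved by over 1.5 times when some sample was left out, for example Atg4d from −0.45 to −0.011, Gabarapl1 from −0.56 to −0.036, Atg10 from 0.089 to 0.87, Bnip3l from 0.088 to 0.44 and Becn1 from 0.035 to 0.18. The 7 that moved less were Rb1cc1, Atg101, Atg2a, Wipi2, Atg3, Map1lc3b and Gabarapl2. The cause of these shifts was not tested. Wipi1, Atg4a, Atg4c, Optn and Bnip3 had the lowest levels and the largest SE of the members. The part of depth in this was not tested.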
